A study of Mus musculus with 18 samples.

Results

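Levels of 10 WNT and R-spondin pathway genes were followed through the mouse mammary gland by single-cell RNA sequencing. The genes were Wnt4, Wnt5a, Wnt10a, Rspo1, Rspo3, Lgr4, Lgr5, Procr, Axin2 and Lef1, 10 of the 31053 features that each library counted. They were chosen by name, with earlier results of these data known, and not by a threshold on any measured value. The series holds 18 libraries of droplet-based 3' single-cell profiles, of which 17 came from sorted mammary cells and 1 from embryonic skin. Mice or embryos were pooled for a library, and a library, not a cell, was the unit of replication.

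From C57BL/6 animals there was 1 library each of E18.5 mammary rudiments, the skin next to them, the gland at 5 days after birth, the gland before puberty at 2.5 weeks, the buds that end growing ducts (terminal end buds, TEB) as well as ductal tissue at 5 weeks, and the virgin gland of adults at 10 weeks. SWISS mice gave 1 adult virgin library at 10 weeks. From FVB/NJ mice there were 3 adult virgin libraries at 10 weeks (A10, P7 and D12), 2 of mid-pregnancy at day 12.5 (libraries G and H), 2 of late pregnancy at day 18.5 (libraries B4 and F4), 2 of lactation day 10 (D6 and F11) and 1 after involution, labelled 3 weeks post birth. The E18.5 embryos carried an Lgr5-GFP-IRES-creERT2 knock-in allele, whose fluorescence also served in their dissection, so Lgr5 was not independent of how those 2 libraries were taken. The TEBs and ducts were cut out under fluorescence from females with an E-cadherin-GFP allele. All cells had been depleted of blood and endothelial cells and sorted on CD24 and CD29, and the estrus cycle was not staged.

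WNT proteins are secreted, lipid-modified ligands that bind Frizzled receptors and LRP co-receptors, and in the canonical branch this lets beta-catenin reach the TCF and LEF factors that switch on target genes. R-spondins are secreted proteins that do not start the signal themselves but bind the LGR receptors and keep Frizzled receptors from being removed from the cell surface. In the mammary gland, Wnt4 is known as a progesterone-induced signal of hormone-sensing luminal cells and Rspo1 as a luminal growth factor that acts together with it on basal cells.

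Cells were assigned to classes by marker genes, none of which is among the 10. Of 149371 barcodes, 132599 passed the quality limits, of which 46274 were basal, 34298 luminal progenitor or alveolar (LP/alveolar), 20289 mature luminal (ML) and 12085 fibroblast. A further 9329 cells held markers of more than 1 lineage and were left out of the classes. Totals ran from 9920346 unique molecular identifiers (UMIs) in FVB/NJ adult P7 to 93234616 in lactation D6, and the median depth per kept cell from 2498 UMIs in P7 to 21609 in the TEB library. P7 also stood apart by its 14-base cell barcodes, and the lactation libraries by the share of barcodes kept, 48.6% in F11 and 68.9% in D6. In 2 libraries the label and the classes differed: the E18.5 skin library, labelled epidermis, was 96.9% fibroblast-gated, and at E18.5 in the mammary library 3217 of 6398 cells carried markers of more than 1 lineage. Levels are UMIs per 1000000 (CPM) of all UMIs of a class in a library and can be compared between samples and classes for 1 gene, but not between genes. In such sums, fewer expressing cells and less RNA per cell cannot be told apart.

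All 10 genes are annotated as protein coding, and their positions are those of the GRCm38 build that the files use. The ligand genes lie at chr4:137277489-137299726 (Wnt4), chr14:28504750-28527448 (Wnt5a), chr1:74791516-74804179 (Wnt10a), chr4:124986430-125009099 (Rspo1) and chr10:29452416-29535867 (Rspo3). The receptor genes lie at chr2:109917647-110014257 (Lgr4), chr10:115450311-115587780 (Lgr5) and chr2:155751117-155755471 (Procr), and the target genes at chr11:108920349-108950783 (Axin2) and chr3:131110471-131224356 (Lef1). Rspo3 and Lgr5 are on the minus strand and the others on the plus strand.

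Promoter sequence from RefSeq (GRCm38.p6) was matched for 6 of the 10 genes. It is shown for Rspo1 and Lgr4, which both stood higher in LP/alveolar sums of mid-pregnancy than in virgin adults, and for the target gene Axin2, as the 250 bases before the annotated start on the plus strand (chr4:124986180-124986429, chr2:109917397-109917646 and chr11:108920099-108920348).
Rspo1: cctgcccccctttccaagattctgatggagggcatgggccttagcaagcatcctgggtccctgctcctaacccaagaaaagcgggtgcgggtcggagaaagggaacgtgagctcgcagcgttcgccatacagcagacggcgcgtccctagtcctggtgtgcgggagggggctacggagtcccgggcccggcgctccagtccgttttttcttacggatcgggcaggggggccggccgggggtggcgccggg
Lgr4: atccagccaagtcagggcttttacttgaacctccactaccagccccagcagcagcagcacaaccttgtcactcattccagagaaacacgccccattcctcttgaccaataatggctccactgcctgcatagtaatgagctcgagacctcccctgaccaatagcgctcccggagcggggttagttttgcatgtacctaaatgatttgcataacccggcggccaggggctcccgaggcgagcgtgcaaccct
Axin2: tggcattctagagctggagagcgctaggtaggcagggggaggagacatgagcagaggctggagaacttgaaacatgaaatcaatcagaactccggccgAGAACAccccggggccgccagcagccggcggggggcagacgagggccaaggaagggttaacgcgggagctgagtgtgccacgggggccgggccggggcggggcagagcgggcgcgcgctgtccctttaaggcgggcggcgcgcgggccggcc
The windows were searched on both strands for CTTTGAT, a core bound by TCF and LEF factors, TTCNNNGAA, the STAT5 core, and TGTTCT, bound by the progesterone receptor and its relatives. Among 32851 mouse promoter windows of this length, 3.21%, 7.02% and 16.1% held them. The Rspo1 and Lgr4 windows held none of these letters, and the Axin2 window held 1 TGTTCT match, on the minus strand (capitals), 152 bases before the start. These are matches of letters and not measured binding.

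The 5 adult virgin libraries (FVB/NJ A10, P7 and D12, C57BL/6, SWISS) were used to ask which class carries each ligand, receptor and target. Wnt4 and Wnt5a were highest in ML sums, Rspo1 in LP/alveolar sums among the epithelial classes, Wnt10a, Lgr4 and Lgr5 in basal sums and Procr in fibroblast sums, whereas Axin2 was higher in basal than in luminal sums. In edgeR's quasi-likelihood test with library as a block, 7 of 8 tested genes differed between basal and LP/alveolar sums, where 44.3% of all tested genes did, and 7 of 8 between basal and ML sums, where 57.2% did. Between ML and LP/alveolar sums 5 of 8 differed (39.8% of all genes), and between fibroblast and basal sums 4 of 8 (48.7%). Rspo3 and Lef1 had too few UMIs to be tested.

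Wnt4 read 340, 33.3, 125, 363 and 445 CPM in the ML sums of A10, P7, D12, C57BL/6 and SWISS. The LP/alveolar sums read 12.5, 6.21, 21.3, 25.7 and 23.6 CPM and the basal sums 16.7, 7.13, 20.5, 11.2 and 9.99 CPM, in the same order of libraries. Every ML value lay above every LP/alveolar and basal value, and P7 was the lowest library in each class. Wnt4 was higher in ML than in LP/alveolar sums by 3.64 ± 0.40 (SE) on the log2 scale (edgeR, adjusted p = 7.57e-07) and lower in basal than in ML sums (log2 change -4.15 ± 0.41; edgeR, adjusted p = 8.15e-08). The basal minus LP/alveolar difference was -0.51 ± 0.39 and did not pass (edgeR, adjusted p = 0.311). Shares after thinning, here and below, used only cells with at least 2000 UMIs, thinned to that depth, whereas unthinned shares used all cells. In P7, for example, 568 basal cells were thinned and 689 were left out. After thinning, 6.60% (P7) to 51.5% (SWISS) of ML cells held a Wnt4 UMI against 1.27% to 4.43% of LP/alveolar cells, from 10.2% to 85.9% and from 1.97% to 14.6% without thinning.

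Wnt5a, known mainly as a ligand of the non-canonical branch, read 157, 99.0, 53.2, 108 and 60.1 CPM in ML sums and 33.5, 17.6, 44.5, 37.0 and 55.0 CPM in basal sums. LP/alveolar sums held 4.63 to 7.76 CPM, below all values of the other epithelial classes. ML sums exceeded basal sums in each library, but D12 in ML lay below SWISS in basal, so the ranges overlapped. The log2 difference was 4.03 ± 0.35 between ML and LP/alveolar (edgeR, adjusted p = 6.22e-08), 2.72 ± 0.34 between basal and LP/alveolar (edgeR, adjusted p = 2.92e-06) and -1.31 ± 0.30 for basal minus ML (edgeR, adjusted p = 0.00113). Fibroblast sums read 12.8 to 46.0 CPM, and their difference from basal sums (-0.16 ± 0.36) did not pass (edgeR, adjusted p = 0.757) and changed sign without D12 (0.031).

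Wnt10a was a basal transcript. Its basal sums read 31.1, 79.5, 34.7, 32.0 and 40.2 CPM, and no luminal sum of an adult library exceeded 2.08 CPM. The log2 difference was 6.15 ± 0.52 against LP/alveolar (edgeR, adjusted p = 2.01e-08) and 6.09 ± 0.47 against ML (edgeR, adjusted p = 4.27e-09), and the first was 6.90 without D12. P7, the shallowest library and the lowest for Wnt4, was the highest for Wnt10a.

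Among the epithelial classes Rspo1 was highest in LP/alveolar sums, with 4.45, 15.5, 23.8, 19.6 and 218 CPM in A10, P7, D12, C57BL/6 and SWISS. Basal sums read 0.505, 0.75, 2.15, 2.13 and 3.81 CPM and ML sums 0.222, 0.647, 0.818, 0.563 and 16.7 CPM. LP/alveolar was the highest epithelial class in each library, and SWISS stood far above the other 4 (3471 UMIs; exact 95% Poisson interval 211 to 226 CPM, counting error only). Rspo1 was lower in basal (log2 change -4.14 ± 0.65; edgeR, adjusted p = 3.27e-05) and in ML sums (-4.18 ± 0.61; edgeR, adjusted p = 2.07e-05) than in LP/alveolar sums, and basal minus ML was 0.03 ± 0.68 (edgeR, adjusted p = 0.971). Without SWISS the differences of basal and ML from LP/alveolar sums were -3.51 and -4.87, and both passed. After thinning to 2000 UMIs, 32.4% of SWISS LP/alveolar cells held a Rspo1 UMI against 0.940% to 3.67% in the other adult libraries (61.7% against 1.75% to 6.89% unthinned). Fibroblast sums read 16.5, 12.8, 0, 3.57 and 6.05 CPM in the same order, from at most 12 UMIs a library, which in A10 was above the LP/alveolar level and in the other 4 below it. Strain, pool and library cannot be told apart for SWISS.

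Rspo3, the second R-spondin on the list, was close to absent from adult epithelium. The LP/alveolar sums of all 5 adult libraries held 0 UMIs, which allows up to 0.189 (SWISS) to 1.55 CPM (P7), and no basal sum exceeded 0.177 CPM. Fibroblast sums held 5 UMIs in A10, 1 in D12 and 15 in C57BL/6, and 0 in P7 and SWISS.

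Lgr4, the more widely used R-spondin receptor, read 39.1, 5.63, 45.2, 56.5 and 54.6 CPM in basal sums, 6.19, 0.517, 11.1, 15.8 and 10.3 CPM in LP/alveolar sums and 2.93, 0, 6.69, 5.38 and 4.91 CPM in ML sums. The order basal, LP/alveolar, ML held in each of the 5 libraries, while the ranges of neighbouring classes overlapped across libraries. In P7 the LP/alveolar level rested on very few UMIs and ML held 0, so the luminal order there is not firm. Basal sums exceeded LP/alveolar sums by 2.17 ± 0.21 (edgeR, adjusted p = 9.86e-08) and ML sums by 3.38 ± 0.22 on the log2 scale (edgeR, adjusted p = 5.87e-10). ML minus LP/alveolar was -1.20 ± 0.21 (edgeR, adjusted p = 0.000172) and fibroblast minus basal -1.48 ± 0.25 (edgeR, adjusted p = 7.45e-05), and both calls were lost in a fit without the library block (adjusted p = 0.251 and 0.178).

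Lgr5, a related receptor known as a stem cell marker in gut and skin, read 11.6, 24.0, 54.1, 64.3 and 2.69 CPM in the basal sums. SWISS was the lowest library for Lgr5 in basal cells and the highest for Rspo1 in LP/alveolar cells. The other libraries did not show such an inverse order, since A10, the next lowest for Lgr5, was the lowest for Rspo1. LP/alveolar sums held 0 to 4.63 CPM and ML sums 0 to 3.20 CPM. The log2 differences were 4.50 ± 0.47 for basal minus LP/alveolar (edgeR, adjusted p = 2.40e-07), 5.18 ± 0.46 for basal minus ML (edgeR, adjusted p = 2.04e-08) and -3.71 ± 0.68 for fibroblast minus basal (edgeR, adjusted p = 0.000202). The last was -2.66 without C57BL/6 and -4.31 without A10, and basal minus ML was 4.52 without C57BL/6, with each call kept.

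Procr, the protein C receptor, which has been used as a marker of a rare basal population, was a fibroblast transcript here. Its fibroblast sums read 295, 306, 243, 424 and 173 CPM, its basal sums 5.70, 13.5, 1.38, 3.9 and 2.11 CPM, and no luminal sum exceeded 0.971 CPM. Fibroblast sums exceeded basal sums by 5.96 ± 0.36 on the log2 scale (edgeR, adjusted p = 2.41e-10), and basal exceeded LP/alveolar sums by 3.47 ± 0.51 (edgeR, adjusted p = 1.81e-05) and ML sums by 2.84 ± 0.40 (edgeR, adjusted p = 6.99e-06). Basal minus LP/alveolar was 4.12 without SWISS. The part of RNA from fibroblasts in the basal level was not tested.

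Of the targets, Axin2, a feedback inhibitor that the canonical signal induces, read 10.3, 2.63, 10.9, 7.36 and 7.26 CPM in basal sums, 0.906, 0.517, 2.08, 0.655 and 4.47 CPM in LP/alveolar sums and 0.489, 0, 0.892, 0.169 and 1.15 CPM in ML sums. Basal was the highest epithelial class in each library. The log2 difference was 2.33 ± 0.38 against LP/alveolar (edgeR, adjusted p = 4.76e-05; 2.96 without SWISS) and 4.0 ± 0.39 against ML (edgeR, adjusted p = 6.24e-08). ML minus LP/alveolar was -1.68 ± 0.41 (edgeR, adjusted p = 0.00289) and was lost without the library block (adjusted p = 0.0899). Lef1, a DNA-binding partner of beta-catenin and itself a target, stayed at or below 0.493 CPM in adult epithelium and at 0 UMIs in adult fibroblast sums. It was found in the few immune-gated cells, with 18 UMIs in 37 cells of C57BL/6 and 27 UMIs in 43 cells of SWISS (232 and 371 CPM).

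**Figure D1:**
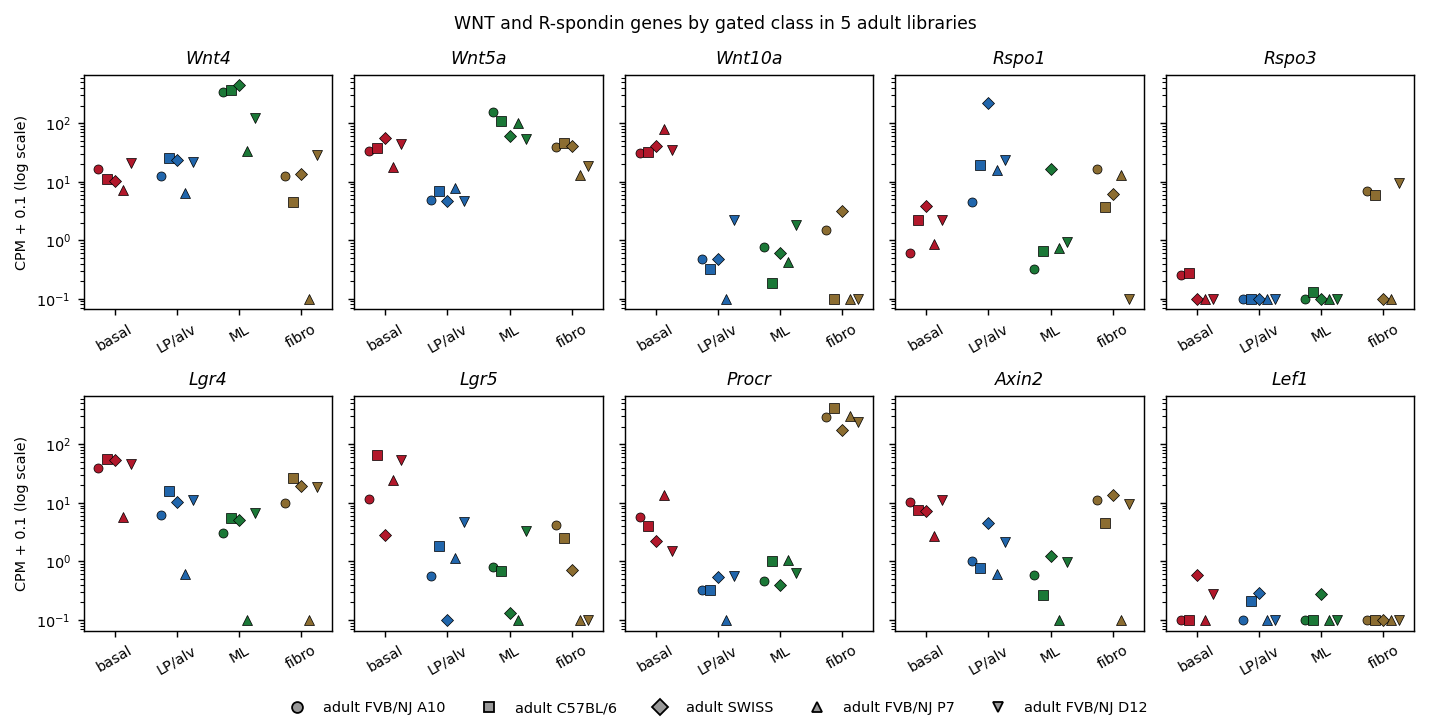
Levels of the 10 genes (CPM plus 0.1, log axis) in basal, LP/alveolar, mature luminal and fibroblast sums of the 5 adult virgin libraries, 1 point per library with the marker shape giving the library. Before 0.1 was added, Wnt4 in mature luminal sums read 33.3 to 445 CPM and Rspo1 in LP/alveolar sums 4.45 to 218 CPM, and Lgr4, Lgr5 and Wnt10a are highest in basal sums.

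The remaining pathway was described from lists of 73 genes by role. Receptors and the proteins that turn them over stood higher in basal than in LP/alveolar sums for 12 of 18 genes and lower for 0 (median log2 difference 1.16, against 0.01 over all genes), where 23.6% of all tested genes were higher and 20.7% lower. They stood higher than in ML sums for 13 and lower for 3 (median 1.84 against 0.02), where 29.9% of all tested genes were higher and 27.3% lower. Secreted or membrane inhibitors were higher in basal than in LP/alveolar sums for 5 of the 7 tested of 16, and higher than in ML sums for 6, with the same shares of all genes beside them. Among the ligands, 7 of 18 were tested, and basal sums were higher for 3 and lower for 2 than LP/alveolar sums. Among genes with at least 10 UMIs in both classes, Wif1, a secreted protein that binds WNTs, had the largest basal excess over LP/alveolar sums (log2 difference 6.63 ± 0.46). Next came Nkd1 and Nkd2, intracellular inhibitors that act on Dishevelled and were listed as targets (6.24 ± 0.43 and 4.42 ± 0.41), the ligand Wnt6 (5.33 ± 0.63) and Dkk3 (4.55 ± 0.46). All 5 had an edgeR adjusted p of at most 1.27e-06. The receptor kinase Ror2 was also higher in basal sums (edgeR, adjusted p = 1.91e-05), against 4, 0, 1, 3 and 0 UMIs in the LP/alveolar sums of A10, P7, D12, C57BL/6 and SWISS. Over ML sums, again among genes with at least 10 UMIs in both classes, the largest basal excess was that of Wif1 (6.52 ± 0.43), Nkd1 (6.09 ± 0.40) and Wnt6 (6.05 ± 0.59). Sostdc1, a secreted antagonist of BMP and WNT signals (5.77 ± 0.69), and Nkd2 (5.39 ± 0.40) followed, all with an edgeR adjusted p of at most 1.02e-06. The Frizzled gene Fzd9 was also higher in basal sums (edgeR, adjusted p = 1.19e-07), against 1, 0, 0, 0 and 3 UMIs in the ML sums of A10, P7, D12, C57BL/6 and SWISS.

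Between the luminal classes, 4 of 18 receptor genes were higher and 8 lower in ML than in LP/alveolar sums, where 19.8% of all tested genes were higher and 19.9% lower. The WNT5A receptor gene Ror2 and the Frizzled gene Fzd10 (4.75 ± 0.56) were higher in ML, and the ligand Wnt5b (-4.56 ± 0.31), the secreted Frizzled-related Sfrp2 (-4.05 ± 0.64), the R-spondin receptor gene Lgr6 (-3.73 ± 0.34) and the kinase gene Ror1 (-3.35 ± 0.38) were lower, with an edgeR adjusted p of at most 5.63e-05. Fibroblast sums were higher than basal sums for 3 and lower for 11 of 18 receptor genes (median log2 difference -1.30, against -0.22 over all genes), where 19.7% of all tested genes were higher and 29.0% lower. They were higher for the ligands Wnt2 and Wnt10b and the inhibitors Sfrp4 and Sfrp2 and lower for Wnt7b and Wif1 (edgeR, adjusted p at most 0.0145).

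The FVB/NJ libraries were used to follow the genes from virgin adult (A10, P7, D12) through pregnancy day 12.5 (G, H) and 18.5 (B4, F4) to lactation (D6, F11), with the post-involution library as a single value. Rspo1 was higher at pregnancy day 12.5 than in virgin adults in LP/alveolar sums, together with Lgr4, and Lgr5 and Wnt5a were lower. By lactation, Rspo1 in LP/alveolar sums was below its level of late pregnancy, and Axin2 was at 0 UMIs. Over the 12 stage comparisons in 3 classes, 14 of 76 gene tests passed an adjusted p of 0.05 (edgeR), against 22 with DESeq2. The unadjusted p was under 0.05 in 37. By edgeR, the share of all tested genes that passed ran from 0% (basal sums, day 18.5 minus 12.5, among others) to 27.8% (LP/alveolar sums, lactation minus adult). No such share is given here for the DESeq2 and unadjusted counts, so whether those counts are unusual cannot be judged. Scaling mattered at lactation, since 8 milk protein genes made up 77.0% to 77.9% of the UMIs of LP/alveolar sums, against 0.228% to 4.29% in virgin adults.

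Changes below use TMM scaling, which centres most genes near 0. Against plain totals the median of all tested genes in LP/alveolar sums moved from -0.03 to -1.78 for lactation minus day 18.5 and from -0.05 to -2.55 for lactation minus adult (log2), and the share of calls that were higher in lactation went from 71.5% to 2.21% and from 54.2% to 3.12%. For day 12.5 minus adult the median moved from 0.04 to -0.24 and the share from 47.8% to 30.2%, and for day 18.5 minus 12.5 from 0.00 to -0.47 and from 83.5% to 28.4%. In basal sums the lactation medians against plain totals were -0.40 and -0.47, and the shares went from 88.5% to 71.4% and from 77.0% to 61.6%. In ML sums the lactation minus adult median was -0.34 and the share went from 64.7% to 53.5%. On plain totals Rspo1 in LP/alveolar sums changed by -6.96 between lactation and day 18.5, and by -4.43 between lactation and adult, where it then passed (edgeR, adjusted p = 0.00333).

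Rspo1 read 4.45, 15.5 and 23.8 CPM in the LP/alveolar sums of A10, P7 and D12, 238 and 260 CPM in G and H, and 108 and 57.7 CPM in B4 and F4. It read 0.0546 CPM (4 UMIs) and 1.36 CPM (46 UMIs) in D6 and F11, and 86.4 CPM after involution. With milk genes left out of the total, the lactation values were 0.247 and 5.89 CPM, the values of G and H 281 and 303 CPM, and those of A10, P7 and D12 4.65, 15.9 and 23.9 CPM. The 2 libraries of mid-pregnancy lay above all other FVB/NJ libraries on both scales. The 2 lactation libraries lay below all others as a share of all UMIs, whereas with milk genes left out F11 lay above A10. The virgin SWISS library, not part of this comparison, lay above every FVB/NJ library except G and H as a share of all UMIs.

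At pregnancy day 12.5, 4 of 8 tested genes passed in LP/alveolar sums, where 11.5% of all tested genes did. The log2 change of Rspo1 was 4.49 ± 0.91 (edgeR, adjusted p = 0.0154), a call that was lost without G and without H (adjusted p up to 0.0920), and the change was 5.08 without D12. The comparison of lactation with day 18.5 was chosen with the fall of Rspo1 already known, so its p-value is not that of a fresh test. The log2 change of Rspo1 there was -5.28 ± 1.14 (edgeR, adjusted p = 0.0352), where 2 of 8 genes and 3.52% of all genes passed. This call was lost in 7 of 18 other fits, among them those without B4, D6, F4, G or H, with adjusted p up to 0.185; over all 18 the log2 change ran from -8.79 (without F11) to -4.27 (without D6), and it was -4.66 without B4. From day 12.5 to 18.5 the change was -1.09 ± 0.93 (edgeR, adjusted p = 0.637), where 0 of 8 genes passed (4 at an unadjusted p under 0.05, 0 by DESeq2) among 0.761% of all genes. Lactation minus adult was -1.88 ± 0.98 (edgeR, adjusted p = 0.177), where 5 of 8 genes and 27.8% of all genes passed. This difference rested on F11: without it the log2 change was -5.41 and passed (edgeR, adjusted p = 0.0145), and it also passed with all libraries when no low-count filter was applied (-1.89; adjusted p = 0.00123). After thinning to 2000 UMIs a cell, 34.6% and 37.1% of LP/alveolar cells of G and H held a Rspo1 UMI, 14.8% and 9.77% of B4 and F4, 0.0261% and 0.557% of D6 and F11, and 12.5% after involution. Without thinning these shares were 68.8% and 71.7%, 31.3% and 23.9%, 0.104% and 0.952%, and 24.1%.

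In basal sums Rspo1 read 0.505, 0.75 and 2.15 CPM in the virgin adults and 24.9 and 26.3 CPM at day 12.5 (log2 change 4.53 ± 0.51; edgeR, adjusted p = 0.0136; lost without G or H, adjusted p up to 0.113, and 5.53 without D12). Here 2 of 8 genes passed, where 0.632% of all genes did. The basal level was 10.4% and 10.1% of the LP/alveolar level in G and H, and milk transcripts in basal sums stood at 7.10% and 9.62% of their own LP/alveolar level in these libraries. At day 18.5 the figures were 14.7% and 29.7% for Rspo1 in B4 and F4 and 6.18% and 14.9% for milk genes. In lactation basal sums held 5 UMIs (3.38 CPM) in D6 and 2 UMIs (1.11 CPM) in F11, which was 6187% and 81.7% of the LP/alveolar level, while milk genes stood at 9.95% and 49.4%. In D6 basal Rspo1 thus lay above the LP/alveolar level, from 5 and 4 UMIs. Lactation minus day 18.5 in basal sums was -2.56 ± 0.67 (edgeR, adjusted p = 0.110; 0.0258 without D12). Thinned basal cells with a Rspo1 UMI were 3.44% and 4.15% in G and H (6.47% and 7.18% unthinned), with median depths of 3371 and 3216.5 UMIs against 7429.5 and 7160 in LP/alveolar cells. The paper describes some basal cells with milk protein transcripts in lactation. The part of free RNA, of mixed droplets or of the basal cells' own transcripts in the basal Rspo1 level was not tested. The Rspo1 change at day 12.5 differed between LP/alveolar and basal sums by -0.07 ± 0.42 on the log2 scale, which did not pass (edgeR, adjusted p = 0.985). For lactation minus day 18.5 the difference was -2.95 ± 1.04 (edgeR, adjusted p = 0.152), and it passed without F11 (-6.28; adjusted p = 0.00540) and against plain totals (-4.13; adjusted p = 0.00552).

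Lgr4 read 6.19, 0.517 and 11.1 CPM in LP/alveolar sums of the virgin adults, 29.2 and 28.4 CPM at day 12.5, 75.0 and 53.9 CPM at day 18.5 and 40.2 and 77.2 CPM in lactation. It read 10.9 CPM after involution, inside the range of the virgin adults, and all 6 libraries of pregnancy and lactation lay above that range. The log2 change was 2.45 ± 0.65 at day 12.5 (edgeR, adjusted p = 0.0386), a call lost in 8 of 18 other fits (adjusted p up to 0.194), among them those without A10, G, H, B4, F4, D6 or F11. Lactation minus adult was 5.68 ± 0.71 (edgeR, adjusted p = 0.000553), and 3.20 against plain totals. Thinned cells with a Lgr4 UMI were 0% to 1.83% of LP/alveolar cells in virgin adults, 6.01% and 5.72% at day 12.5, 15.9% and 10.2% at day 18.5 and 9.57% and 13.5% in lactation (0.164% to 4.70%, 18.6% and 17.9%, 50.7% and 27.5%, and 46.0% and 38.5% unthinned).

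In basal sums Lgr4 read 39.1, 5.63 and 45.2 CPM in virgin adults, 67.1 and 59.8 CPM at day 12.5, 106 and 66.9 CPM at day 18.5 and 79.1 and 134 CPM in lactation, a change at day 12.5 of 1.11 ± 0.70 that did not pass (edgeR, adjusted p = 0.530). The change at day 12.5 was larger in LP/alveolar than in basal sums by 1.36 ± 0.34 (edgeR, adjusted p = 0.0165), the 1 difference of 32 that passed (10 at an unadjusted p under 0.05). For this difference 7.06% of all genes passed, and 2.5% for the same classes between lactation and day 18.5; for ML minus LP/alveolar 9.23% and 0.468% did. These shares depended on the scaling: against plain totals 6937 and 3389 of 14969 genes passed for the 2 lactation differences, in place of 374 and 70, with medians of -1.32 and 1.23 in place of 0.07 and -0.10, and the share of positive calls went from 54.8% to 0.879% and from 34.3% to 98.8%. For day 12.5 the shares of positive calls went from 34.1% to 24.8% and from 46.9% to 81.3%, with medians of -0.05 and 0.05 in place of 0.02 and -0.27. The call was lost without A10, G or H (adjusted p up to 0.196). In basal sums no gene of the 8 passed between lactation and adult, where 4.63% of all genes did (edgeR; 4 at an unadjusted p under 0.05, 3 by DESeq2), and Lgr4 changed by 2.28 ± 0.72 there (edgeR, adjusted p = 0.109; 1.79 and adjusted p = 0.0403 without P7).

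Lgr5 read 11.6, 24.0 and 54.1 CPM in basal sums of virgin adults, 0.667 and 1.75 CPM in G and H, 2.53 and 0.754 CPM in B4 and F4, 6.76 CPM (10 UMIs) and 0.554 CPM (1 UMI) in D6 and F11, and 30.3 CPM after involution. Every library of pregnancy and lactation lay below every virgin FVB/NJ library, and the post-involution library lay within the range of these virgin libraries. The virgin SWISS library, not part of this comparison, lay below D6 and above the other libraries of pregnancy and lactation. The log2 change at day 12.5 was -4.54 ± 0.86 (edgeR, adjusted p = 0.0495), and this call was lost in 10 of 18 other fits, among them those with milk genes removed and without D12, G, H, B4, F4, D6 or F11 (adjusted p up to 0.643). The change was -3.73 without D12 and -5.30 without H. In LP/alveolar sums Lgr5 fell from 0.453, 1.03 and 4.63 CPM to 0.110 and 0.127 CPM (3 and 5 UMIs; log2 change -3.61 ± 1.03; edgeR, adjusted p = 0.0495). This call was lost in 10 of 18 other fits (adjusted p up to 0.320), among them those without D12, where the change was -2.06, and without G, H, B4, F4, D6 or F11. It was -4.25 without A10, where the call was kept. In lactation the LP/alveolar sums of D6 and F11 held 2 and 0 UMIs, and lactation minus adult was -4.06 ± 1.29 (edgeR, adjusted p = 0.0412; lost in 9 of 18, adjusted p up to 0.151, among them without D12, D6, F11, G, H, B4 or F4). That change was -7.78 without D6, -4.68 without A10 and -2.48 without D12. Thinned cells with a Lgr5 UMI were 2.29%, 2.46% and 10.2% of basal cells in A10, P7 and D12, 0.156% and 0.293% in G and H, and 5.70% after involution (4.56%, 4.45%, 21.0%, 0.253%, 0.562% and 8.65% unthinned).

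Wnt5a in ML sums read 157, 99.0 and 53.2 CPM in virgin adults, 13.6 CPM (10 UMIs) and 10.9 CPM (7 UMIs) at day 12.5, 33.1 and 30.4 CPM at day 18.5, 20.5 and 26.1 CPM in lactation, and 102 CPM after involution. The virgin and post-involution libraries did not overlap with the others. Its change at day 12.5 was -3.14 ± 0.59 (edgeR, adjusted p = 0.00912; lost without G or H, adjusted p up to 0.152; -2.52 without A10), the 1 of 3 tested genes that passed in ML sums, where 7.05% of all genes did. In LP/alveolar sums the change was -1.66 ± 0.46 at day 12.5 (edgeR, adjusted p = 0.0460; lost in 6 of 18 other fits, among them without A10, G, H, B4 or F4, adjusted p up to 0.376) and -2.38 ± 0.53 between lactation and adult (edgeR, adjusted p = 0.00912; lost without D6, adjusted p = 0.0922; -3.15 without F11). Basal sums read 33.5, 17.6 and 44.5 CPM in virgin adults and 14.5 and 10.4 CPM at day 12.5 (-1.28 ± 0.45; edgeR, adjusted p = 0.225; -1.59 and adjusted p = 0.0406 without P7).

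Wnt4 in ML sums read 340, 33.3 and 125 CPM in virgin adults, 654 and 577 CPM at day 12.5, 333 and 336 CPM at day 18.5, 148 and 282 CPM in lactation and 493 CPM after involution. The libraries of day 12.5 were the highest of all, and the change of 1.72 ± 0.78 did not pass (edgeR, adjusted p = 0.220). Without A10 it was 2.92 and passed (edgeR, adjusted p = 0.0289), as it did with all libraries and no low-count filter (1.63; adjusted p = 0.0392). Lactation minus adult was 0.53 ± 0.79 (edgeR, adjusted p = 0.801) and changed sign without F11 (-0.30). In ML sums 0 of 3 genes passed between day 18.5 and 12.5, between lactation and day 18.5 (0% of all genes in both) and between lactation and adult (3.5%; 2 at an unadjusted p under 0.05 and 1 by DESeq2). Wnt10a in basal sums read 31.1, 79.5 and 34.7 CPM in virgin adults and 6.10 to 25.0 CPM in pregnancy and lactation, without overlap, and its changes at day 12.5 (-1.06 ± 0.46; edgeR, adjusted p = 0.328) and in lactation (-1.33 ± 0.50; edgeR, adjusted p = 0.171) did not pass.

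Axin2 in LP/alveolar sums read 0.906, 0.517 and 2.08 CPM in virgin adults, 1.54 and 1.37 CPM at day 12.5, 0.318 and 0.265 CPM at day 18.5, and 0 UMIs in both lactation libraries. Against a floor of 3 UMIs over the 2 libraries it was at least 40.3-fold lower in lactation than in virgin adults and at least 10.4-fold lower than at day 18.5, and at least 9.31-fold and 3.55-fold lower with milk genes left out of the totals. The lactation minus adult test passed (edgeR, adjusted p = 0.00559; lost without D6, adjusted p = 0.0615), and lactation minus day 18.5 did not (edgeR, adjusted p = 0.0805). Basal sums read 10.3, 2.63 and 10.9 CPM in virgin adults, 3.59 and 3.03 CPM at day 12.5, 3.24 and 1.68 CPM at day 18.5 and 3.38 and 2.22 CPM in lactation, and the change at day 12.5 was -1.26 ± 0.57 (edgeR, adjusted p = 0.356). The change at day 12.5 differed between LP/alveolar and basal sums by 1.85 ± 0.55 and missed the threshold (edgeR, adjusted p = 0.0508). It passed without D12 (2.22; adjusted p = 0.0201), without F11 (0.0329), without D6 (0.0355) or with a looser gate of 66.7% of marker UMIs (1.86; 0.0433). For lactation minus day 18.5, with 0 UMIs in LP/alveolar sums of lactation, the difference between these classes missed the threshold (edgeR, adjusted p = 0.0561) and passed against plain totals (0.00124), with the looser gate (0.0473) and without D12 (0.0398), with a negative difference each time.

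Procr in LP/alveolar sums read 0.226, 0 and 0.463 CPM in virgin adults, 0.183 and 0.101 CPM at day 12.5, 0.424 and 0.464 CPM at day 18.5 and 2.31 and 1.77 CPM in lactation. Both lactation libraries lay above all others. The log2 change between lactation and day 18.5 was 3.95 ± 0.50 (edgeR, adjusted p = 0.00326; lost without B4 or F4, adjusted p up to 0.0769), and 2.19 against plain totals. Lactation minus adult was 5.37 ± 0.56 (edgeR, adjusted p = 0.000246), and 2.96 against plain totals. The virgin adult levels rested on very few UMIs (0 in P7), so the direction is firmer than the size of this change. In basal sums Procr read 5.70, 13.5 and 1.38 CPM in virgin adults, 37.2 and 17.7 CPM in lactation and 41.3 CPM after involution, and lactation minus adult was 2.50 ± 0.67 (edgeR, adjusted p = 0.0653; 3.12 and adjusted p = 0.0199 without P7). Between lactation and day 18.5 0 of 8 genes passed in basal sums, where 1.55% of all genes did (edgeR; 2 at an unadjusted p under 0.05 and 2 by DESeq2), and between day 18.5 and 12.5 0 of 8, where 0% did (1 and 0). Fibroblasts and endothelial cells were more frequent in the lactation libraries, with 441 and 364 gated cells in D6 and 62 and 78 in F11, against at most 21 and 5 in a library of pregnancy. Procr read 179 and 59.0 CPM in the fibroblast cells of D6 and F11 and 28.6 and 17.4 CPM in their endothelial cells. In LP/alveolar sums all 7 fibroblast and all 6 endothelial markers had UMIs in D6 and F11. With milk genes left out of the total, the fibroblast markers together read 55.5 and 31.4 CPM in D6 and F11, against 12.4 to 28.7 CPM in pregnancy and 13.6 to 40.8 CPM in virgin adults, and the endothelial markers 39.9 and 27.8 CPM against 2.70 to 4.60 CPM and 5.57 to 10.6 CPM. Endothelial markers thus stood higher in both lactation libraries than in the virgin adult and pregnancy libraries, as Procr did, which read 10.4 and 7.69 CPM on this scale. As a share of all UMIs the fibroblast markers read 12.3 and 7.23 CPM in lactation and 10.4 to 19.1 CPM in pregnancy, and the endothelial markers 8.82 and 6.40 CPM against 1.73 to 3.95 CPM in pregnancy and 5.55 to 10.3 CPM in virgin adults. In basal sums, as a share of all UMIs, the endothelial markers read 402 and 76.5 CPM in D6 and F11 against 3.43 to 5.67 CPM in pregnancy and 4.88 to 7.27 CPM in virgin adults, and 6 of 7 fibroblast markers (Pdgfra was at 0 UMIs) 197 and 223 CPM against 290 to 908 CPM and 172 to 317 CPM. The part of RNA of these cells in the Procr levels was not tested.

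**Figure D2:**
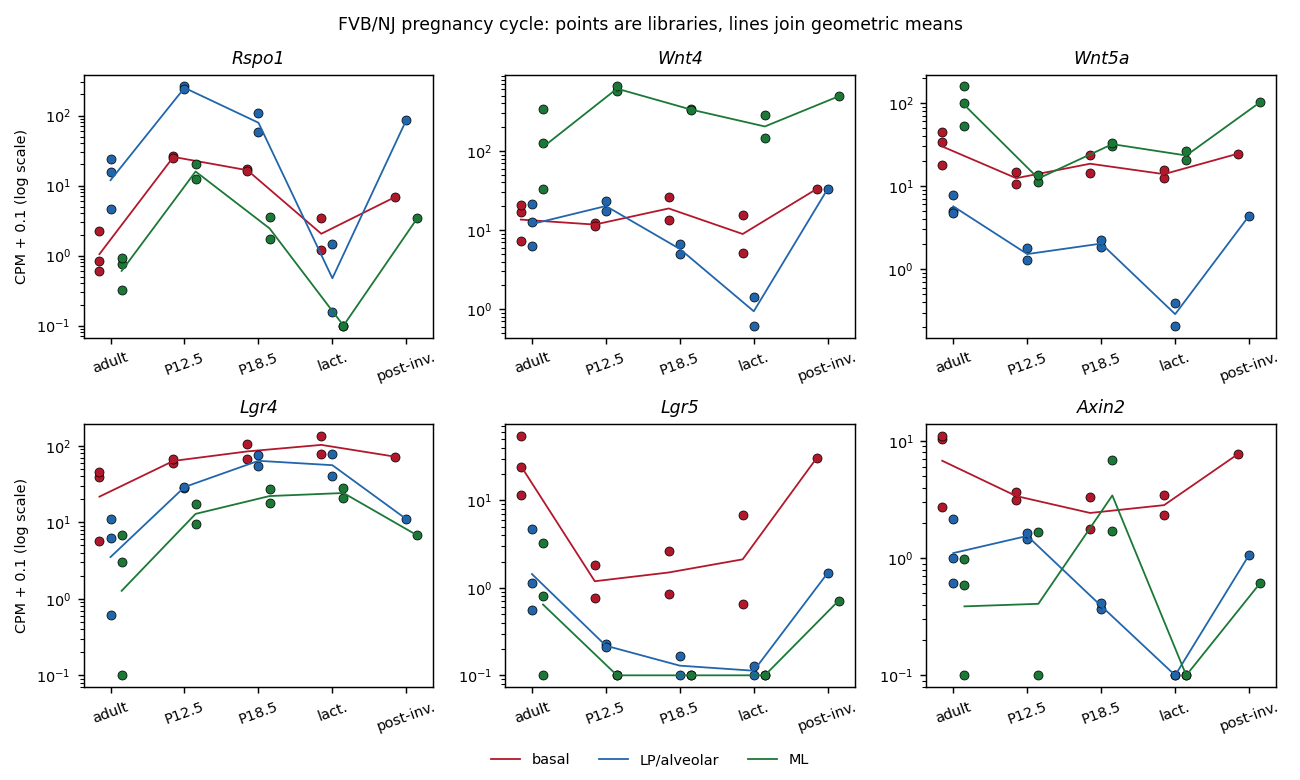
Levels of Rspo1, Wnt4, Wnt5a, Lgr4, Lgr5 and Axin2 (CPM plus 0.1, log axis) in basal, LP/alveolar and mature luminal sums of the FVB/NJ libraries from virgin adult to post-involution. Points are libraries and lines join the geometric means of these values in each stage. Before 0.1 was added, Rspo1 in LP/alveolar sums read 238 and 260 CPM at pregnancy day 12.5 and 0.0546 and 1.36 CPM in lactation, and Lgr5 in basal sums was below 7 in all 6 libraries of pregnancy and lactation.

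Of the other pathway genes in LP/alveolar sums at day 12.5, Tnfrsf19, a TNF receptor family member and known WNT target, was higher (8, 0 and 1 UMIs in A10, P7 and D12, 297 and 427 UMIs in G and H; edgeR, adjusted p = 0.00317), as was the repressor Tcf7l1, by 2.44 ± 0.35 (edgeR, adjusted p = 0.00460). The LP/alveolar sum of virgin SWISS, not part of this test, held 144 UMIs of Tnfrsf19. The inhibitor Sfrp2 (-4.05 ± 0.58) and the ligand Wnt7b (-3.31 ± 0.73) were lower, as were the ligand Wnt9a (2 and 0 UMIs in G and H) and the receptor Fzd10 (0 and 2 UMIs), with an edgeR adjusted p of at most 0.0478. Between lactation and day 18.5, Sfrp2 was higher again (4.84 ± 0.61), from 56 and 57 UMIs in B4 and F4 to 910 and 704 UMIs in D6 and F11, and so was the Frizzled gene Fzd4 (3.02 ± 0.51). Wnt5b (-1.98 ± 0.34) and Tcf7l1 (-1.75 ± 0.39) were lower there, as were Lgr6 (1 and 4 UMIs in D6 and F11) and Wif1 (0 and 1 UMI), with an edgeR adjusted p of at most 0.0383. Between lactation and adult, the R-spondin receptor Lgr6 (1 and 4 UMIs in D6 and F11), the inhibitor Wif1 (0 and 1 UMI), Wnt7b (2 and 6 UMIs), Wnt5b (-3.29 ± 0.34) and the target Ccnd1 (-3.09 ± 0.63) were lower and the inhibitor Sfrp1 was higher (3.81 ± 0.52), with an edgeR adjusted p of at most 0.00613. Lgr6 thus moved opposite to Lgr4 in the same sums. For the genes higher in lactation, fibroblast sums of D6 and F11 read 211 and 118 CPM of Sfrp2 against 12.4 and 20.8 CPM in LP/alveolar sums, 49.3 and 59.0 CPM of Sfrp1 against 20.1 and 26.7 CPM, and 9.47 and 7.38 CPM of Fzd4 (10 and 1 UMIs) against 1.28 and 1.21 CPM. With milk genes left out of the total, Sfrp1 read 90.9 and 116 CPM in LP/alveolar sums against 52.5 and 86.9 CPM in fibroblast sums. The fibroblast and endothelial markers of these libraries are given with Procr, and the part of RNA of those cells in these changes was not tested. In ML sums at day 12.5, Wnt7b (2 and 0 UMIs in G and H) and Ccnd1 (-2.06 ± 0.45) were lower and Dkk3 (2.89 ± 0.48) and Porcn, the acyltransferase that lipidates WNTs (1.92 ± 0.47), were higher, with an edgeR adjusted p of at most 0.0310. Ccnd1 was also lower in ML sums of lactation than of adults (2 UMIs in each of D6 and F11; edgeR, adjusted p = 0.00244).

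In basal sums Nkd2 (-2.39 ± 0.39) and Dkk3 (-2.01 ± 0.37) were lower at day 12.5 than in virgin adults (edgeR, adjusted p at most 0.0449), and Porcn was lower in lactation than at day 18.5 (-2.26 ± 0.46; edgeR, adjusted p = 0.0396). Between lactation and adult, Wif1 (-4.01 ± 0.92), Wnt5b (-2.80 ± 0.55) and Nkd1 (-1.54 ± 0.34) were lower, as were Nkd2 (0 UMIs in D6 and F11) and the TCF family gene Tcf7 (0 and 1 UMI), with an edgeR adjusted p of at most 0.0375. The change at day 12.5 differed between LP/alveolar and basal sums (the first minus the second) for Sfrp2 (-4.60 ± 0.82), Ccnd1 (-2.63 ± 0.49) and Dkk3 (2.54 ± 0.38), and for Tnfrsf19 (a positive difference) and Fzd10 (a negative one), with an edgeR adjusted p of at most 0.0392. For the same classes the change between day 18.5 and lactation differed for Sfrp2 (4.19 ± 1.06) and Lgr6 (a negative difference), with an edgeR adjusted p of at most 0.0418. Between ML and LP/alveolar sums (again the first minus the second) the change at day 12.5 differed for Porcn (2.49 ± 0.53), Dkk3 (2.13 ± 0.49), Fzd3 (2.04 ± 0.40), the kinase gene Gsk3b (1.03 ± 0.21) and Tnfrsf19 (a negative difference), with an edgeR adjusted p of at most 0.00921.

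The TEB and duct libraries at 5 weeks were compared within classes. With 1 library each there is no test, and the ratios carry exact binomial intervals that cover counting error only. Lgr5 read 19.1 CPM (206 UMIs) in the 742 basal cells of the duct and 0.0830 CPM (1 UMI) in the 453 basal cells of the TEB, a ratio of 230 (95% interval 40.9 to 9138). After thinning to 2000 UMIs a cell, 4.05% of basal duct cells and 0% of basal TEB cells held a Lgr5 UMI, against 18.9% and 0.221% unthinned, with median depths of 11904.5 and 25684 UMIs. Wnt10a was 2.27-fold (1.78 to 2.90), Wnt4 1.92-fold (1.15 to 3.28), Axin2 1.59-fold (1.12 to 2.27) and Lgr4 1.46-fold (1.28 to 1.68) higher in the duct. The ratio of Procr, from 19 and 18 UMIs, was 1.18 with an interval (0.586 to 2.38) that included 1.

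Wnt5a went the other way. It read 98.8 CPM in basal TEB cells against 44.9 CPM in the duct (TEB over duct 2.20, 95% interval 1.98 to 2.45), and 335 CPM in the 1051 ML cells of the TEB against 68.2 CPM in the 398 of the duct (4.91, 4.51 to 5.36). Thinned ML cells with a Wnt5a UMI were 41.9% in the TEB and 12.3% in the duct (92.5% and 57% unthinned). Wnt4 in ML sums read 65.4 and 52.0 CPM in the TEB and the duct. In LP/alveolar sums Lgr5 had 0 UMIs in the TEB and 11 in the duct (at least 2.84-fold higher in the duct, against a floor of 3 UMIs), while the ratios of Wnt5a (2.03, 0.994 to 4.29) and Axin2 (2.59, 0.976 to 7.57), both TEB over duct, had intervals that included 1. With a stricter gate (85% of marker UMIs, at least 10 of them) the ratio of Wnt5a was 4.92 (1.93 to 14.8), from 22 and 6 UMIs.

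Of genes with at least 10 UMIs in both libraries together, 3 of 7 on the list differed at least 2-fold in basal sums, where 18.3% of all such genes did, 3 of 6 in LP/alveolar sums (12.2%) and 1 of 4 in ML sums (12.2%). Basal cells of the 2 libraries also differed in markers outside the list. Contractile genes read 15744 CPM in the duct and 5244 CPM in the TEB. The 5 genes taken as epidermal markers (Krt1, Krt10, Krtdap, Sbsn and Krt15) together read 1095 and 127 CPM. This sum was not split by gene, so it does not tell whether skin cells were present. The part of these differences in the basal ratios was not tested.

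**Figure D3:**
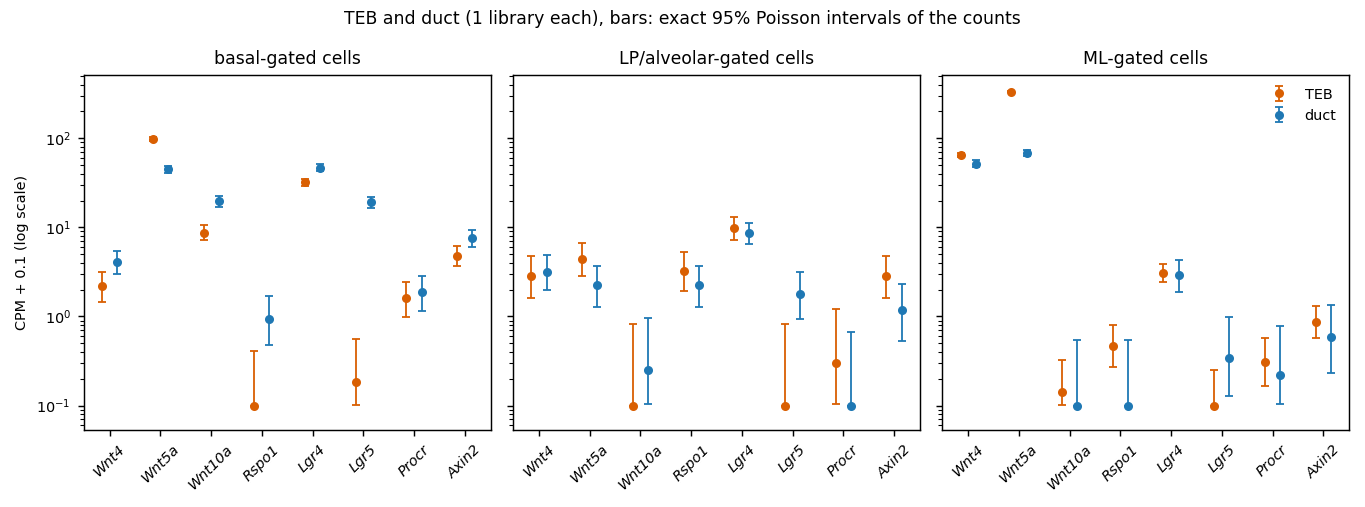
Levels of 8 of the genes (CPM plus 0.1, log axis) in basal, LP/alveolar and mature luminal sums of the TEB and the duct library, 1 library each, with exact 95% Poisson bars that cover counting error only. Before 0.1 was added, Lgr5 in basal sums read 19.1 CPM in the duct and 0.0830 CPM in the TEB, and Wnt5a in mature luminal sums 335 CPM in the TEB and 68.2 CPM in the duct.

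The C57BL/6 libraries from E18.5 to adult gave 1 value per age, so age and library cannot be told apart. Basal-gated cells of the early libraries were split by contractile genes, since many held keratins without them: 603 of 806 at E18.5 and 1764 of 2270 at 5 days. These keratin-only cells read 5349 and 10490 CPM of the same epidermal markers, again not split by gene, against 1656 and 1850 CPM in the contractile cells. Wnt4 read 528 CPM in the keratin-only cells at 5 days against 80.4 CPM in the contractile cells, Wnt10a 80.2 against 14.6 CPM and Lef1 36.6 against 4.48 CPM, while Lgr5 read 21.7 against 73.2 CPM. Wnt4, Wnt10a and Lef1 were thus highest where the epidermal genes were highest, and Lgr5 was not.

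Lgr5 stood above its adult level in the gland before puberty. It read 16.5 CPM in the contractile basal cells of E18.5, 73.2 CPM at 5 days, 149 CPM in basal cells before puberty (2900 UMIs in 2363 cells; exact 95% Poisson interval 144 to 155) and 64.3 CPM in the adult (59.7 to 69.2). Between these last ages lay the values of the TEB (0.0830 CPM) and the duct (19.1 CPM) at 5 weeks, both below the adult. In LP/alveolar sums Lgr5 read 32.6, 61.2, 73.6 and 1.75 CPM at the same ages, and in ML sums 43.3, 7.21, 2.62 and 0.591 CPM. Lgr5 was thus present in both basal and LP/alveolar sums up to the age before puberty and mostly in basal sums of the adult. At E18.5 the luminal classes are nominal, since many cells held mixed markers and the paper reports little lineage separation there. The E18.5 embryos also carried the Lgr5 knock-in allele, and its effect on their Lgr5 level was not tested. Lgr4 was also highest before puberty, with 167 CPM in basal sums (161 to 173) against 31.9 CPM in the TEB, 46.7 CPM in the duct and 56.5 CPM in the adult.

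Wnt10a was lowest at that age, with 11 UMIs (0.566 CPM; 0.282 to 1.01) in basal sums before puberty, 8.64 CPM in the TEB, 19.6 CPM in the duct and 32.0 CPM in the adult (28.8 to 35.5). Wnt5a in ML sums read 12.1 CPM before puberty, 335 CPM in the TEB, 68.2 CPM in the duct and 108 CPM in the adult. Wnt4 in ML sums read 4.33, 44.8 and 151 CPM at E18.5, 5 days and before puberty, 65.4 and 52.0 CPM in the TEB and the duct at 5 weeks, and 363 CPM in the adult, so the levels did not rise at each age. The ML class of E18.5 is nominal here too. The pre-puberty and adult libraries were processed at the same time, the earlier ones were not.

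In the mammary libraries of E18.5 and 5 days the R-spondins were highest in fibroblast sums. The paper regards clusters outside the epithelium at these ages and before puberty as contaminating skin or stromal cells. Whether these fibroblasts came from gland or skin, and whether their source differed by age, was not tested. Rspo3 read 24.5 CPM at E18.5, 657 CPM at 5 days (1567 UMIs in 358 cells), 0 UMIs in 363 cells before puberty, which allows up to 1.86 CPM, and 5.94 CPM in the adult. Rspo1 read 30.4, 193, 1.24 and 3.57 CPM at the same ages, Lef1 11, 108, 1.24 and 0 CPM, and Axin2 10.7, 52.4, 16.1 and 4.36 CPM. These 4 genes were all highest at 5 days. Rspo1 in basal, LP/alveolar and ML sums of E18.5 and 5 days was at most 3.92 CPM. Procr in fibroblast sums was high only in the adult, with 1.57, 2.94, 1.86 and 424 CPM.

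In the skin next to the E18.5 rudiments, fibroblast sums read 120 CPM of Rspo3 and 26.8 CPM of Lef1, 4.90-fold (95% interval 3.92 to 6.21) and 2.44-fold (1.75 to 3.52) above the mammary library. These were the 2 of 10 genes past 2-fold, where 22.7% of all genes were. Axin2 was 1.89-fold and Wnt5a 1.32-fold higher in skin, and Rspo1 read 29.7 CPM in skin and 30.4 CPM in the mammary library. Only 34 cells of the skin library were gated as epithelium, so its epidermis was not compared.

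**Figure D4:**
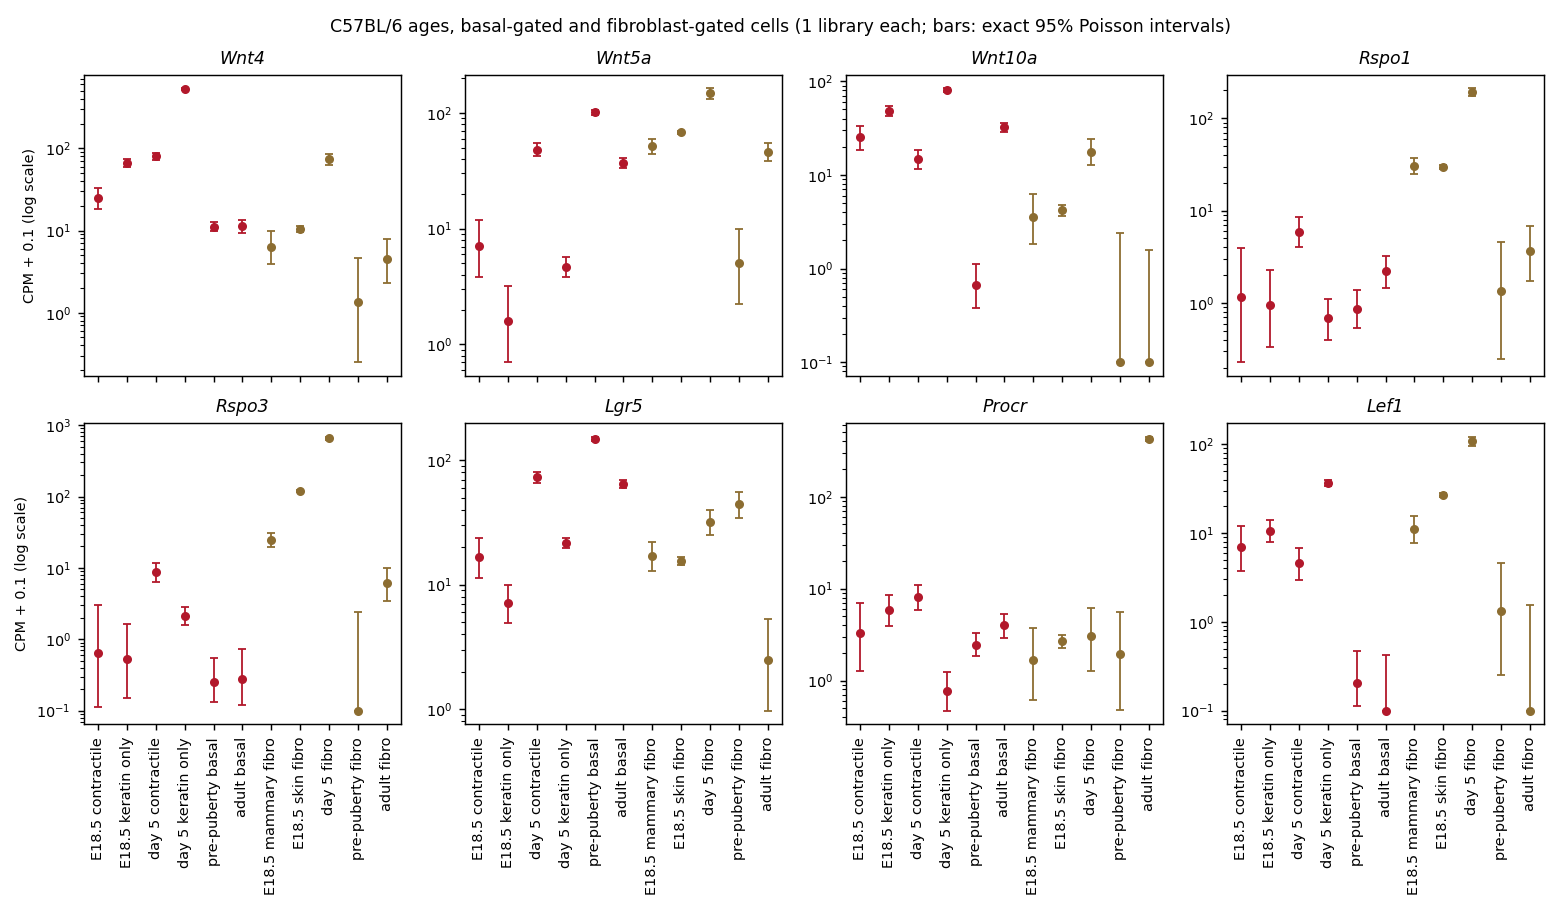
Levels of 8 of the genes (CPM plus 0.1, log axis) in C57BL/6 libraries from E18.5 to adult, for basal cells split by contractile genes and for fibroblasts, 1 library per age. Before 0.1 was added, Rspo3 in fibroblasts read 657 CPM at 5 days and 0 before puberty, and Lgr5 in basal cells 149 CPM before puberty and 64.3 CPM in the adult.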

How the data were processed

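The authors deposited 1 matrix of raw UMI counts per library, made with Cell Ranger (3.0.2 in the headers of 16 files, 3.1.0 in 2) against mm10, without normalization, and these deposited counts were used as they are. Cells with at least 500 genes and within the study's limits on UMIs, genes and mitochondrial share (15% to 25%) were kept, which also served as the treatment of doublets; no doublet caller was run. A cell was gated when one lineage held at least 75% of its marker UMIs, with at least 5 such UMIs, and luminal cells were split into LP/alveolar and ML by at least 3 UMIs of luminal subtype markers. Of kept cells, 6.12% lay within 5 points of the share limit. The E18.5 mammary library (21.2%) and F4 (17.0%) had the most such cells. Of 153 library pairs, 115 shared at least 1 cell barcode, at most 239 barcodes and at most 2.41% of the smaller library (not the same pair). Postnatal day 5, pre-puberty, adult C57BL/6 and SWISS shared few barcodes with the other libraries. E18.5 mammary shared 0, 0, 1 and 2 with them, against 92 with A10, while C57BL/6 and SWISS shared 39. The labels name no barcode set, and whether comparisons across these libraries also cross barcode sets was not tested.

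UMIs were summed per library and class of at least 20 cells and fitted with edgeR 4.0.16 (quasi-likelihood, TMM, filterByExpr, Benjamini-Hochberg over all genes tested; called at an adjusted p under 0.05) in R 4.3.3, on 5 adult libraries with library as a block and on 9 FVB/NJ libraries per class; DESeq2 1.42.0 was an alternative. Single libraries were compared by CPM with exact 95% intervals in Python 3.11.15. Depth bears on precision: libraries held 9920346 to 93234616 UMIs, and intervals cover counting error only. Libraries are separate samples by the labels, and p-values measure the spread between them. Strain, barcode set and processing day were not balanced over the groups; by the methods, FVB/NJ adult and post-involution samples, the pre-puberty, adult C57BL/6 and SWISS samples, the TEB and duct pair and the E18.5 pair were each processed together. The methods give pre-puberty and post-involution ages that differ from the labels in value or wording, and the study's text gives more than 1 lactation time; the labels are used here.

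The scripts were tested on simulated counts. The genes, the pathway lists and the comparisons, including the lactation fall of Rspo1, were chosen with earlier results of these data known, and the share limit of the gate was set with levels of the 10 genes in view. Other pathway genes are named where called, at most the 6 with the largest change per comparison; those with under 10 UMIs in one of the groups compared are given by direction or left out. The split by contractile genes (at least 3 UMIs over 6 genes) and the looser gate (66.7%) were chosen after seeing the data.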

Additional observations from a re-analysis of the deposited data

Results flagged for a closer look

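The change of Lgr4 from virgin adult to pregnancy day 12.5 differed between LP/alveolar and basal sums. The log2 change was larger in LP/alveolar sums by 1.36 ± 0.34 (edgeR, adjusted p = 0.0165). LP/alveolar levels were 6.19, 0.517 and 11.1 CPM in A10, P7 and D12 and 29.2 and 28.4 CPM in G and H, and basal levels 39.1, 5.63 and 45.2 CPM and 67.1 and 59.8 CPM. Over 12 other fits the difference ran from 1.25 to 1.57 and the adjusted p from 0.00364 to 0.196, with the call lost without A10, G or H. P7 had the lowest Lgr4 of the adults in both classes, from very few UMIs in its LP/alveolar sum.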

How the results depend on the processing

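Of the 23 adult class calls, leaving out each library gave 23 to 25. The count of 14 calls over the pregnancy cycle was 22 with DESeq2, 33 without a low-count filter, 8 with a term for the libraries that the study used for its stage comparison, and 5 to 24 when single libraries were left out: 5 without G or H, 8 without F4, B4 or D6 and 24 without P7. The 1 call among differences between classes was 7 against plain totals, 3 with the looser gate, and 0 to 5 when libraries were left out (0 without G or H, 2 without D6, 3 without F11, 5 without D12). The count of 2 genes past 2-fold between E18.5 skin and mammary fibroblasts was 4 with a stricter gate (85%, 10 and 6 UMIs), which also moved duct over TEB of Wnt5a in LP/alveolar sums to 0.203. Signs turned for differences that were not called. Axin2, fibroblast minus basal, was 0.080 without the library block and -0.29 to 0.054 when libraries were left out (0.054 without adult C57BL/6), and Wnt5a, fibroblast minus basal, was -0.39 to 0.031 (0.031 without D12). Wnt4, lactation minus adult in ML sums, was -0.30 to 1.73 (-0.30 without F11), and Rspo1, LP/alveolar minus basal at day 12.5, was -0.15 to 0.061 (0.061 without P7). Of 1024 values under all settings, 909 kept their side of the threshold and direction. The causes were not tested. The adult classes were compared within libraries by the library block. Between stages, no paired analysis was possible because these groups share no replicate numbers in the labels. With 2 libraries a stage, calls near the threshold depended on single libraries. Some values rested on counts of at most 10 UMIs a library. These include Lgr5 in LP/alveolar sums and Wnt5a in ML sums, both at day 12.5. They also include Procr in LP/alveolar sums of virgin adults and Lgr4 in that of P7.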

Other observations

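The genes whose levels followed each of the 10 most closely were found by Pearson's r of log2(CPM + 1) over 63 library and class sums of the mammary libraries, among 10149 genes with a mean of at least 5 CPM. The sums share libraries and depth, so r is a description. Wnt10a was followed by Tenm2 (r = 0.921), Procr by Mustn1 (0.935), Wnt4 by Hipk2 (0.824), Lgr5 by Zdbf2 (0.796), Axin2 by Mical1 (0.778), Wnt5a by Cxxc5 (0.774), Rspo3 by Dkk2, a secreted WNT antagonist (0.771), Lgr4 by Tmem64 (0.742), Lef1 by Dsc3 (0.738) and Rspo1 by the gap junction gene Gjb2 (0.687).

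After involution, in a single library, LP/alveolar sums read 86.4 CPM of Rspo1 (81.7 to 91.3), above all 3 virgin FVB/NJ libraries, and basal sums 41.3 CPM of Procr (37.5 to 45.5), also above all 3. Wnt4 read 33.2 CPM in LP/alveolar and 493 CPM in ML sums. With 1 library there was no test.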
